A study of Macaca mulatta with 4 samples.

Results

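The genes described here encode the enzymes that make and break down cyclic nucleotides: adenylyl cyclases (ADCY), guanylyl cyclases (GUCY1 and GUCY2) and the PDE1 to PDE11 phosphodiesterases. They were chosen by symbol, and a gene was kept if at least 2 of the 4 libraries held 10 or more reads on it. Of 38 matching symbols among the 35395 gene IDs of the table, 33 were kept: 10 adenylyl cyclases, 4 guanylyl cyclase genes and 19 phosphodiesterases. PDE2A and PDE8B were not among the matching symbols, so the set is not complete. RNA came from the amygdala of wild type rhesus macaques (Macaca mulatta). The sevoflurane group, 1 female and 1 male, had inhaled about 2.5 to 3% of this halogenated ether anaesthetic for 4 hours at about postnatal days 7, 21 and 35. Tissue was taken right after the last exposure. The control group was also 1 female and 1 male, and neither what these animals breathed nor their age is given in the sources used here.

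Cyclic AMP and cyclic GMP are second messengers. Adenylyl cyclases of the plasma membrane make cyclic AMP under the control of G proteins and, for some isoforms, of calcium and calmodulin, and soluble guanylyl cyclase makes cyclic GMP when nitric oxide binds its haem. Phosphodiesterases hydrolyse one or both messengers and so set how long and how far a signal spreads. In the amygdala, cyclic AMP signalling through protein kinase A and CREB is a well studied part of the plasticity behind fear memory.

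The libraries held 12477047 to 16293371 reads on genes. Levels are reads per library scaled to a common depth (CPM, the usual unit for gene counts) with TMM scaling, given per library or as mean ± SD over 2 libraries. A gene was called at an adjusted p under 0.05 in edgeR's quasi-likelihood test across all 15417 tested genes, and "rose" and "fell" are used only for such genes. Between conditions 40.7% of all tested genes were called, so a call by itself is common here. Scaling matters for direction: higher calls made up 52.3% of calls under TMM and 63.3% when each library was divided by its total, and the median log2 fold change of all genes was 0.0040 and 0.24 under these scalings. The control male library stood apart. A list of 5 choroid plexus markers summed to 31.0 CPM in the sevoflurane female, 8.10 in the sevoflurane male, 13.3 in the control female, and 17933 in the male control. TTR made up most of the last sum, at 17580 CPM, and CLIC6, KCNJ13 and FOLR1 were also highest in that library. KL was not, at 1.33 CPM there, against 2.72 and 4.81 CPM in the sevoflurane female and male. Striatal-type markers summed to 218, 289, 397 and 2484 CPM in the sevoflurane female, sevoflurane male, control female and control male. Genes of cytosolic ribosomal proteins, which have short messenger RNAs, moved with the condition as well. Of 79 tested, 0 were called higher and 67 lower, and their median log2 fold change was −1.76. Of 6 microglia markers 0 were called higher and 4 lower, with sums of 143 and 200.4 CPM in the sevoflurane female and male, against 367 and 331 CPM in the control female and male. Markers of pericytes and smooth muscle had 1 of 5 higher and 2 lower, and those of endothelium 2 of 5 higher and 1 lower. Of 5 excitatory and 5 inhibitory neuron markers 0 were called, and of 6 astrocyte markers 1 was higher and 2 lower. Oligodendrocyte markers, with 0 of 4 called, summed to 2774 and 3605 CPM in the sevoflurane female and male. Their sums were 1362 CPM in the control female and 5912 CPM in the control male. The part of these differences in the results below was not tested. In bulk tissue, a change in the number of cells of a type and a change in RNA per cell cannot be told apart.

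In the sevoflurane libraries 12 of the 33 genes rose and 0 fell. These were the adenylyl cyclases ADCY1, ADCY5, ADCY6, ADCY9 and ADCY10, the soluble guanylyl cyclase subunits GUCY1A2 and GUCY1B1, and the phosphodiesterases PDE1A, PDE3A, PDE3B, PDE4D and PDE7A. The 12 are 36.4% of the members, where 21.3% of all tested genes were called higher and 19.4% lower. PDE3A and PDE4D, among the 12, reached 10 reads in the sevoflurane libraries only. They are thus members through the group where they are high, and their calls add nothing to that comparison. The median log2 fold change of the 33 was 1.16. At an unadjusted p under 0.05, 16 members were higher and 2 lower (PDE6D and PDE9A). The share of all tested genes at that threshold was not counted, so these counts cannot be set against a background. DESeq2 called 15 members higher and 1 lower, where it called 23.3% and 22.2% of all tested genes. Both sevoflurane libraries lay above both controls for 18 members (37.7% of all tested genes) and below both for 5 (37.3% of all tested genes). The remaining 10 overlapped. With sex as a second term, which blocks on the 1 female and 1 male of each condition, 21 members were called higher and 1 lower, where 25.9% and 24.9% of all tested genes were. The 12 were among the 21, together with ADCY2, GUCY1A1, PDE1C, PDE4B, PDE4C, PDE5A, PDE7B, PDE10A and PDE11A. Of the 12 calls, 6 held under all 9 alternatives tried: ADCY1, ADCY6, ADCY9, GUCY1A2, PDE1A and PDE4D. Without the sevoflurane male, the calls of ADCY5, ADCY10, GUCY1B1, PDE3A, PDE3B and PDE7A were lost. Without the control male, those of ADCY5, ADCY10, GUCY1B1 and PDE7A were lost, while GUCY1A1, PDE1C, PDE10A and PDE11A were called.

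**Figure D1:**
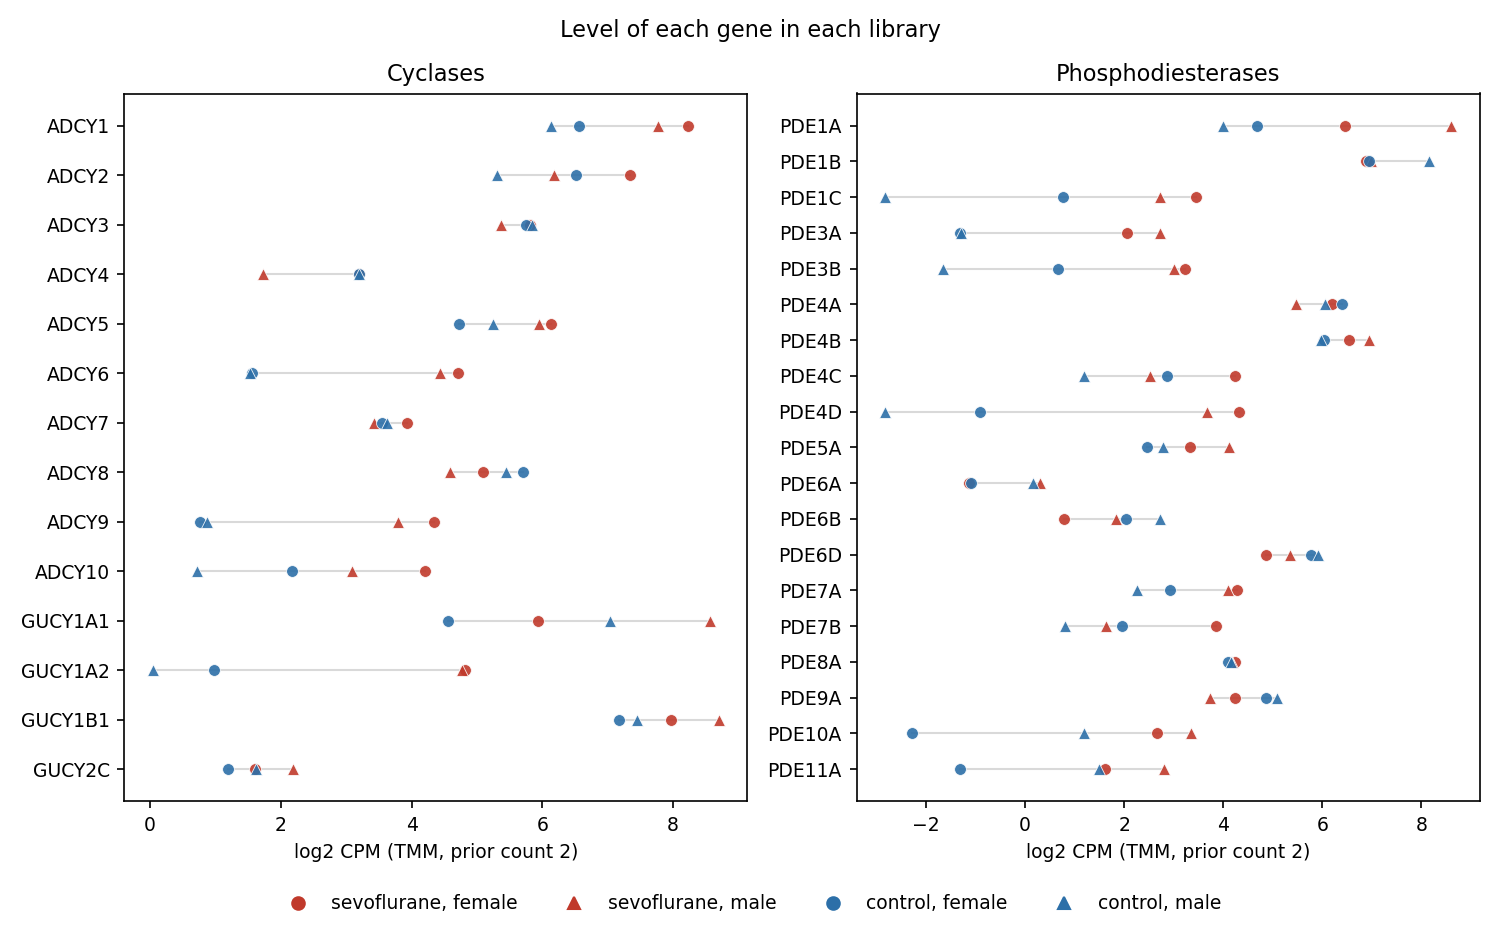
Level of the 33 genes in each library (x axis, log2 CPM with TMM scaling and a prior count of 2; red for sevoflurane, blue for control, circles for females, triangles for males). The red points of ADCY6, ADCY9, GUCY1A2, PDE3A and PDE4D stand well to the right of the blue ones, while those of GUCY1A1 part by sex as well as by condition.

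The transmembrane adenylyl cyclases split into genes that rose and genes that did not pass the test. ADCY6, an isoform inhibited by calcium, stood at 26.0 and 21.4 CPM in the sevoflurane female and male, against 2.81 and 2.75 in the control female and male. The sevoflurane libraries were close to each other, as were the controls, and the gap between the groups was wide. The log2 fold change was 3.09 ± 0.39 SE, which is 8.51-fold (ENSMMUG00000006253, edgeR adjusted p = 0.00297, higher in both sexes). ADCY9, a broadly expressed isoform that responds poorly to forskolin, stood at 20.1 and 13.7 CPM in the sevoflurane female and male, against 1.57 and 1.69 in the control female and male. It was thus low in both controls and rose by 3.37 ± 0.47 (ENSMMUG00000039943, edgeR adjusted p = 0.00378), a 10.4-fold difference.

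ADCY1, the calmodulin-stimulated isoform of neurons, was at 299 and 218 CPM in the sevoflurane female and male and at 94.5 and 70.2 CPM in the control female and male. The female library was the higher one in each group, and the groups did not overlap. Its log2 fold change was 1.65 ± 0.30 (ENSMMUG00000006421, edgeR adjusted p = 0.00789), with nearly the same value in females (1.66) as in males (1.63). ADCY5, the main isoform of striatal neurons, was at 69.7 and 61.6 CPM in the sevoflurane female and male, against 26.2 and 37.9 CPM in the control female and male. It rose by 1.03 ± 0.30 (ENSMMUG00000002230, edgeR adjusted p = 0.0350), but the call was lost when any 1 of the 4 libraries was left out. The values without them lay between 0.81 and 1.29. The striatal-type marker list, by contrast, had its highest sum in the control male library, and of its 7 tested genes 2 were called higher and 3 lower.

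The other transmembrane isoforms were not called. ADCY8, also stimulated by calmodulin, was at 34.1 and 23.8 CPM in the sevoflurane female and male and at 51.8 and 43.3 CPM in the control female and male. Both sevoflurane values lay below both control values, with a log2 fold change of −0.71 ± 0.31 (ENSMMUG00000010440, edgeR adjusted p = 0.113). ADCY1 and ADCY8, which share activation by calmodulin, therefore stood on opposite sides of 0, although a test of the difference between the genes was not run. ADCY2 was at 161 and 72.3 CPM in the sevoflurane female and male and at 91.7 and 39.5 CPM in the control female and male. Its groups overlapped because the female library was higher within each, and the value of 0.83 ± 0.52 was not called. Leaving out the control female gave 1.58, which was called (edgeR adjusted p = 0.0267), and leaving out the sevoflurane female gave 0.15. With sex in the model the gene was called at 0.84 (edgeR adjusted p = 0.0226), as it was with no filter on low counts. Values of ADCY3, ADCY4 and ADCY7 were −0.19 ± 0.28, −0.57 ± 0.59 and 0.11 ± 0.38. The low value of ADCY4 came from the sevoflurane male alone (3.16 CPM), since the sevoflurane female (9.05) stood level with the control female (9.07) and control male (9.06).

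ADCY10, the soluble adenylyl cyclase that is activated by bicarbonate and not by G proteins, was at 18.2 and 8.38 CPM in the sevoflurane female and male. In the control female and male it was at 4.37 and 1.51 CPM. The groups did not overlap, with females above males in both, and the log2 fold change was 2.16 ± 0.68 (ENSMMUG00000010380, edgeR adjusted p = 0.0450). Its call was lost without the sevoflurane female (1.51), the sevoflurane male (2.62) or the control male library (1.57), and the value was 3.15 without the control female.

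**Figure D2:**
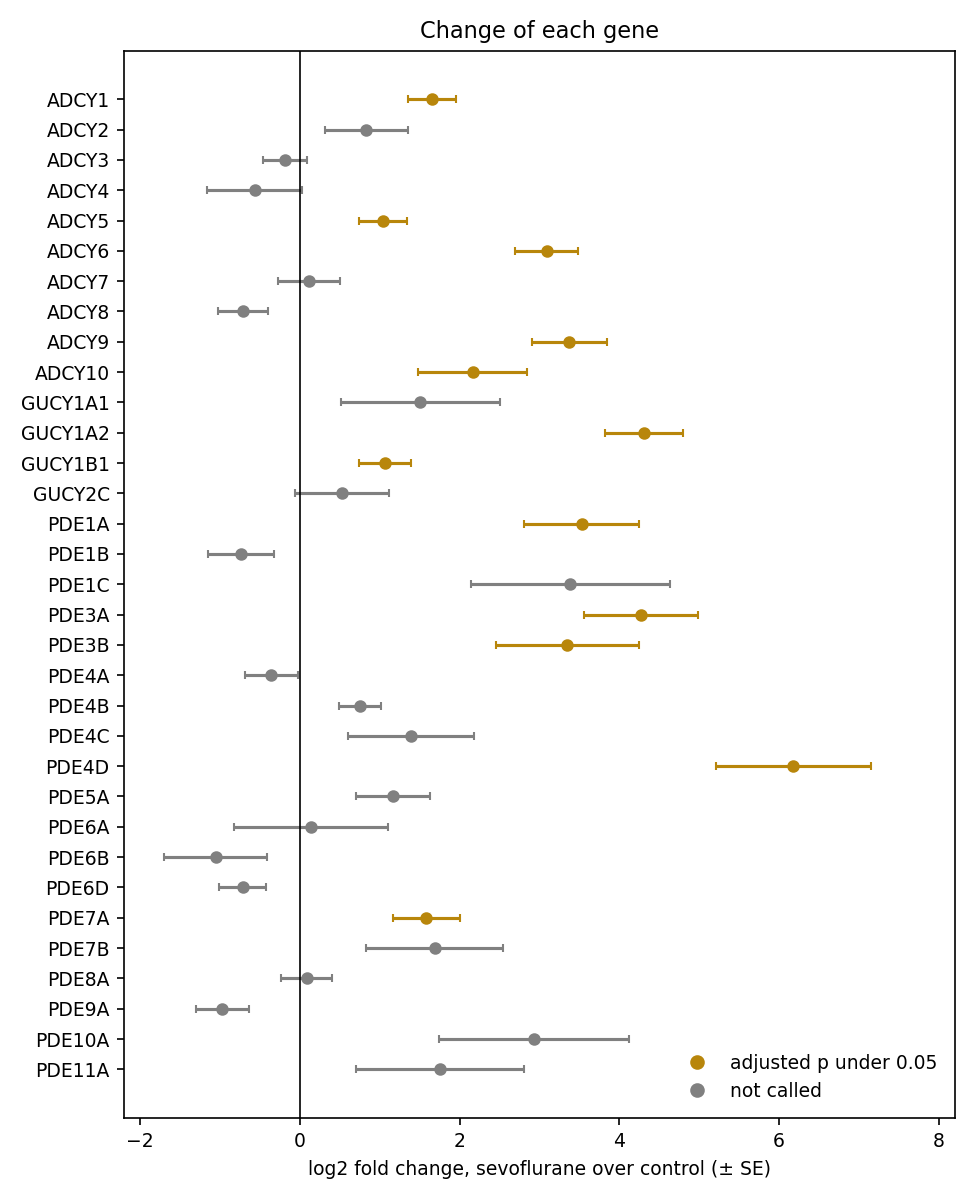
Log2 fold change of sevoflurane over control (x axis) with its standard error as bars, for the 33 genes in order of family, coloured by whether edgeR's adjusted p was under 0.05. The 12 called genes all lie to the right of 0, from 1.03 for ADCY5 to 6.18 for PDE4D.

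Soluble guanylyl cyclase works as a dimer of an alpha subunit (GUCY1A1 or GUCY1A2) and the beta subunit GUCY1B1. GUCY1A2 was at 28.0 and 27.1 CPM in the sevoflurane female and male, against 1.83 and 0.888 CPM in the control female and male. It had nearly the same level in both sevoflurane animals and was scarce in both controls. The log2 fold change was 4.31 ± 0.49, or 19.9-fold (ENSMMUG00000013419, edgeR adjusted p = 0.00248), and 4.96 without the control female library.

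GUCY1B1 was at 250.2 and 417 CPM in the sevoflurane female and male and at 144 and 175 CPM in the control female and male. The male was above the female in each group. It rose by 1.06 ± 0.32 (ENSMMUG00000005447, edgeR adjusted p = 0.0406), a call lost without the sevoflurane male (0.65), the control female (0.96) or the control male library (1.18). GUCY1A1 differed in another way. It was at 61.1 and 377 CPM in the sevoflurane female and male, against 23.5 and 131 CPM in the control female and male. The control male thus lay above the sevoflurane female, and the log2 fold change of 1.51 ± 1.0 was not called (edgeR adjusted p = 0.263). It was 3.20 and called without the control male library (edgeR adjusted p = 0.00780), and −0.33 without the sevoflurane male. Within sexes the changes were close, at 1.38 in females and 1.53 in males, and with sex in the model GUCY1A1 was called at 1.45 (edgeR adjusted p = 0.000650).

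Among receptor guanylyl cyclases, GUCY2C, the receptor for guanylin peptides, was at 2.91 and 4.40 CPM in the sevoflurane female and male and at 2.15 and 2.93 CPM in the control female and male. Its log2 fold change was 0.52 ± 0.59 and the groups overlapped by a narrow margin. The retinal cyclases GUCY2D and GUCY2F fell below the read minimum and were not tested. GUCY2D had 19 and 8 reads in the sevoflurane female and male, against 3 and 2 in the control female and male, and GUCY2F had 2 to 7 reads in each library.

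Within the soluble cyclase, the share of alpha subunit reads that fell on GUCY1A2 needs no scaling between libraries. The sevoflurane female had 31.4% (95% Wilson interval 29.1 to 33.9) and the sevoflurane male 6.70% (6.09 to 7.37). The control female had 7.22% (5.04 to 10.2) and the control male 0.675% (0.367 to 1.24). Within each sex the sevoflurane animal had the higher share, but the sevoflurane male and the control female were alike. Such intervals cover counting error only, and a share of reads depends on transcript length, so that shares are compared between libraries and not between genes.

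Phosphodiesterases that hydrolyse cyclic AMP alone are PDE4, PDE7 and PDE8. Of 7 members, 2 rose and 0 fell, with a median log2 fold change of 1.39. The 2 are 28.6% of these members, not far from the 21.3% of all tested genes called higher. PDE4D, among the 2, is a member through its sevoflurane reads only. PDE4D, one of the isoforms inhibited by rolipram, had 313 and 184 reads in the sevoflurane female and male, against 6 and 0 reads in the control female and male. In CPM this was 19.8 and 12.6, against 0.391 and 0. The transcript was close to absent from control libraries of similar depth, and the fitted log2 fold change was 6.18 ± 0.97 (ENSMMUG00000012132, edgeR adjusted p = 0.00513). Without the control male library it was 5.31. Without the control female, no control reads were left and PDE4D was at least 62.4-fold higher in sevoflurane against a floor of 3 reads over the group, 0.269 CPM.

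The other PDE4 genes were not called. PDE4A was at 73.6 and 43.9 CPM in the sevoflurane female and male and at 84.7 and 65.9 CPM in the control female and male, a log2 fold change of −0.36 ± 0.33. PDE4B, the isoform most tied to inflammatory signalling, was at 93.3 and 123 CPM in the sevoflurane female and male and at 65.2 and 63.2 CPM in the control female and male. Its groups did not overlap, and the value of 0.75 ± 0.26 missed the threshold (edgeR adjusted p = 0.0615). PDE4B was called with library totals, by DESeq2 and with sex in the model. PDE4C was at 18.9 and 5.56 CPM in the sevoflurane female and male and at 7.11 and 2.13 CPM in the control female and male. Females were above males in both groups, and its log2 fold change was 1.39 ± 0.79. The value depended on single libraries, at 2.53 and called without the control female (edgeR adjusted p = 0.0202), but 0.27 without the sevoflurane female and 0.74 without the control male. It was called with sex in the model (edgeR adjusted p = 0.0223) and with no filter on low counts.

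The makeup of PDE4 reads differed accordingly. PDE4D held 9.64% of them (8.67 to 10.7) in the sevoflurane female, while the sevoflurane male had 6.85% (5.95 to 7.86). The control female had 0.249% (0.114 to 0.541), and the control male 0 of 1477 reads, with a Wilson interval up to 0.259%. PDE4A held 35.8% and 23.8% of PDE4 reads in the sevoflurane female and male, against 53.8% and 50.2% in the control female and male. On this scale the groups did not overlap for either gene.

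PDE7A was at 19.4 and 17.0 CPM in the sevoflurane female and male and at 7.50 and 4.62 CPM in the control female and male. It rose by 1.58 ± 0.42, or 2.99-fold (ENSMMUG00000011262, edgeR adjusted p = 0.0264), and its call was lost without the sevoflurane female, the sevoflurane male or the control male library (1.25 to 1.68). PDE7B was at 14.3 and 2.95 CPM in the sevoflurane female and male, against 3.72 and 1.60 in the control female and male. Its sevoflurane male lay below the control female, and the value of 1.69 ± 0.86 was not called. It was 2.44 and called without the control female (edgeR adjusted p = 0.0458), and 0.15 without the sevoflurane female. PDE7B was also called with sex in the model (edgeR adjusted p = 0.0445) and with no filter on low counts. PDE8A, a high-affinity enzyme, was level at 18.8 and 17.9 CPM in the sevoflurane female and male and 16.9 and 17.8 CPM in the control female and male (0.08 ± 0.32).

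**Figure D3:**
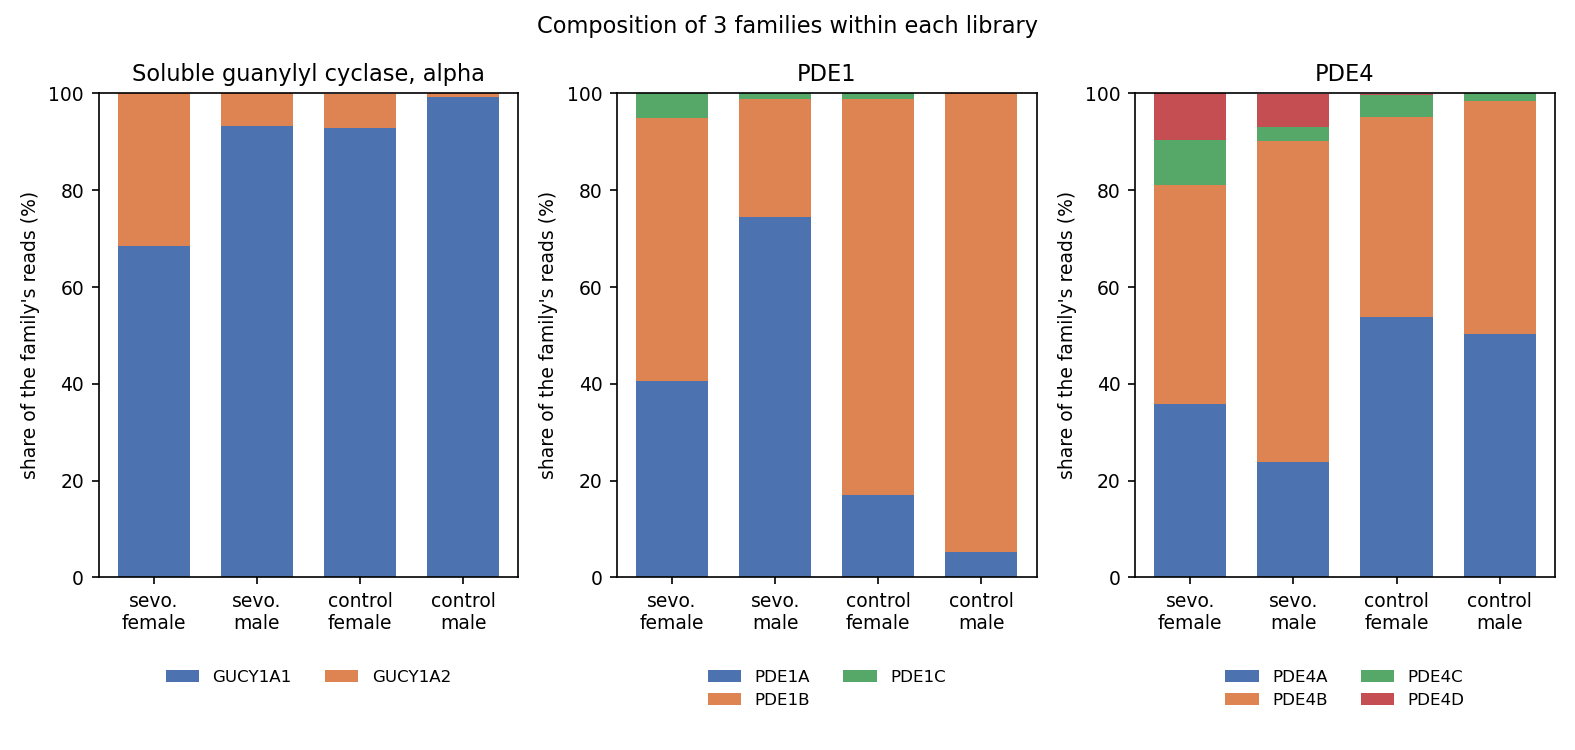
Share of reads (y axis, percent) that each gene held among the alpha subunits of soluble guanylyl cyclase, the PDE1 genes and the PDE4 genes, with 1 bar per library. PDE4D takes 9.64% and 6.85% of the sevoflurane female and male bars, against 0.249% and 0% of the control ones, and PDE1A takes a larger share of PDE1 reads in both sevoflurane libraries than in either control.

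Among the phosphodiesterase families kept here, those that hydrolyse both messengers are PDE1, PDE3, PDE10 and PDE11. Of 7 members, 3 rose and 0 fell, with a median log2 fold change of 3.35. The 3 are 42.9% of these members, where 21.3% of all tested genes were called higher and 19.4% lower. PDE3A, among the 3, is a member through its sevoflurane reads only. PDE1A, activated by calcium and calmodulin, was at 87.6 and 390.1 CPM in the sevoflurane female and male, against 25.4 and 15.8 CPM in the control female and male. The groups did not overlap, but the sevoflurane male stood far above the sevoflurane female. The log2 fold change was 3.53 ± 0.72 (ENSMMUG00000001163, edgeR adjusted p = 0.0113). It was 2.09 without the sevoflurane male and 4.25 without the sevoflurane female, and called in both cases.

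PDE1B, abundant in striatal neurons, did not share this pattern. It was at 117 and 127 CPM in the sevoflurane female and male, against 123 and 286 CPM in the control female and male. Only the control male stood out, the library with the highest sum of striatal-type markers, and the value of −0.74 ± 0.41 was not called (edgeR adjusted p = 0.191). Leaving out the control male gave −0.04, and leaving out the control female −1.20, which was called (edgeR adjusted p = 0.0326). PDE1A held 40.6% of PDE1 reads (39.0 to 42.3) in the sevoflurane female, while the sevoflurane male had 74.5% (73.5 to 75.4). The control female had 17.0% (15.5 to 18.6) and the control male 5.23% (4.53 to 6.03). PDE1C had 170 and 94 reads in the sevoflurane female and male, against 24 and 0 reads in the control female and male. The value of 3.39 ± 1.25 missed the threshold (edgeR adjusted p = 0.0705). It was called with sex in the model (3.95, edgeR adjusted p = 0.00116), with no filter, by DESeq2, and when either control was left out. Leaving out the male gave 2.42, and leaving out the female left 0 control reads and a level at least 33.1-fold higher than the floor of 0.269 CPM.

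PDE3A and PDE3B, the enzymes whose cyclic AMP hydrolysis is inhibited by cyclic GMP, both rose. PDE3A was at 4.05 and 6.46 CPM in the sevoflurane female and male, against 0.261 and 0.266 CPM in the control female and male, which stand for 4 and 3 reads. Its log2 fold change was 4.27 ± 0.72 (ENSMMUG00000008269, edgeR adjusted p = 0.00616), and the call was lost without the sevoflurane male library (3.90, edgeR adjusted p = 0.0534). PDE3B was at 9.24 and 7.90 CPM in the sevoflurane female and male, against 1.44 and 0.178 CPM in the control female and male, which stand for 22 and 2 reads. The sevoflurane values were close together and the control values were not. It rose by 3.35 ± 0.89 (ENSMMUG00000000759, edgeR adjusted p = 0.0267), a call that needed both sevoflurane libraries. Leaving out the control male gave 2.54, and the ratio of sevoflurane to control reads was 49.1 (95% counting interval 13.5 to 408) without the control female.

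PDE10A, the phosphodiesterase typical of striatal medium spiny neurons, had 98 and 147 reads in the sevoflurane female and male, against 1 and 24 reads in the control female and male. PDE11A had 46 and 99 reads in the sevoflurane female and male, against 4 and 30 in the control female and male. In both genes the groups did not overlap in CPM and the control female was lowest by far. Their log2 fold changes were 2.93 ± 1.19 and 1.75 ± 1.05, and neither was called (edgeR adjusted p = 0.0926 and 0.221). Without the control male library both were called. PDE11A was then at 4.15, and for PDE10A the ratio of sevoflurane to control reads was 121 (21.5 to 4799). Without the control female the values were 1.96 for PDE10A and 0.89 for PDE11A, and PDE11A was at 1.02 without the sevoflurane male, none of them called. With sex in the model both were called, at 3.57 for PDE10A and 2.20 for PDE11A (edgeR adjusted p = 0.00190 and 0.0206).

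Phosphodiesterases that hydrolyse cyclic GMP alone are PDE5, PDE6 and PDE9. Of 4 members 0 were called, where 40.7% of all tested genes were. Their median log2 fold change was −0.42. PDE9A, which has a very high affinity for cyclic GMP, was at 18.9 and 13.1 CPM in the sevoflurane female and male and at 29.1 and 33.7 CPM in the control female and male. Both sevoflurane values lay below both controls, and the log2 fold change of −0.97 ± 0.34 missed the threshold (ENSMMUG00000022107, edgeR adjusted p = 0.0585). PDE9A was the 1 member that DESeq2 called lower (adjusted p = 0.0400), and it was also called with sex in the model (edgeR adjusted p = 0.0374). PDE5A, the target of sildenafil, was at 9.94 and 17.2 CPM in the sevoflurane female and male and at 5.35 and 6.75 CPM in the control female and male. Here the sevoflurane values were the higher ones, and 1.16 ± 0.46 missed the threshold (edgeR adjusted p = 0.0859), though it passed with library totals and with sex in the model.

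The photoreceptor subunits were scarce. PDE6A had 5 to 16 reads per library and a log2 fold change of 0.14 ± 0.96. PDE6B was at 1.58 and 3.43 CPM in the sevoflurane female and male and at 3.98 and 6.48 CPM in the control female and male, a change of −1.06 ± 0.64 that was not called. Reads on PDE6C, PDE6G and PDE6H stayed below the minimum, with 0 to 2 in each library, and of 5 photoreceptor and pineal markers 4 were too scarce to test, the transcription factor CRX among them with 0 reads in all 4 libraries. The one tested, the pineal enzyme AANAT, had 2 and 1 reads in the sevoflurane female and male, against 16 and 67 reads in the control female and male, and was called lower (−5.02, edgeR adjusted p = 0.0180). PDE6D, a chaperone of prenylated proteins rather than an enzyme, was at 29.1 and 40.7 CPM in the sevoflurane female and male and at 54.7 and 59.9 CPM in the control female and male. Its groups did not overlap, and −0.71 ± 0.29 was not called (edgeR adjusted p = 0.0949).

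Females and males can be compared within each condition, with 1 animal each. The change between conditions was positive in both sexes for 23 of the 33 genes and negative in both for 7, against 42.9% and 42.4% of all tested genes. PDE1A had a log2 fold change of 1.78 in females and 4.61 in males, and PDE3B one of 2.57 in females and 4.66 in males. PDE1C had 2.68 in females and 5.55 in males. PDE10A went the other way, with 4.95 in females and 2.17 in males. The control male had 2 reads on PDE3B and 0 on PDE1C, and the control female 1 on PDE10A. Those folds therefore depend on the prior count of 2. No test of these differences is possible, since a model with an interaction leaves no residual degrees of freedom.

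**Figure D4:**
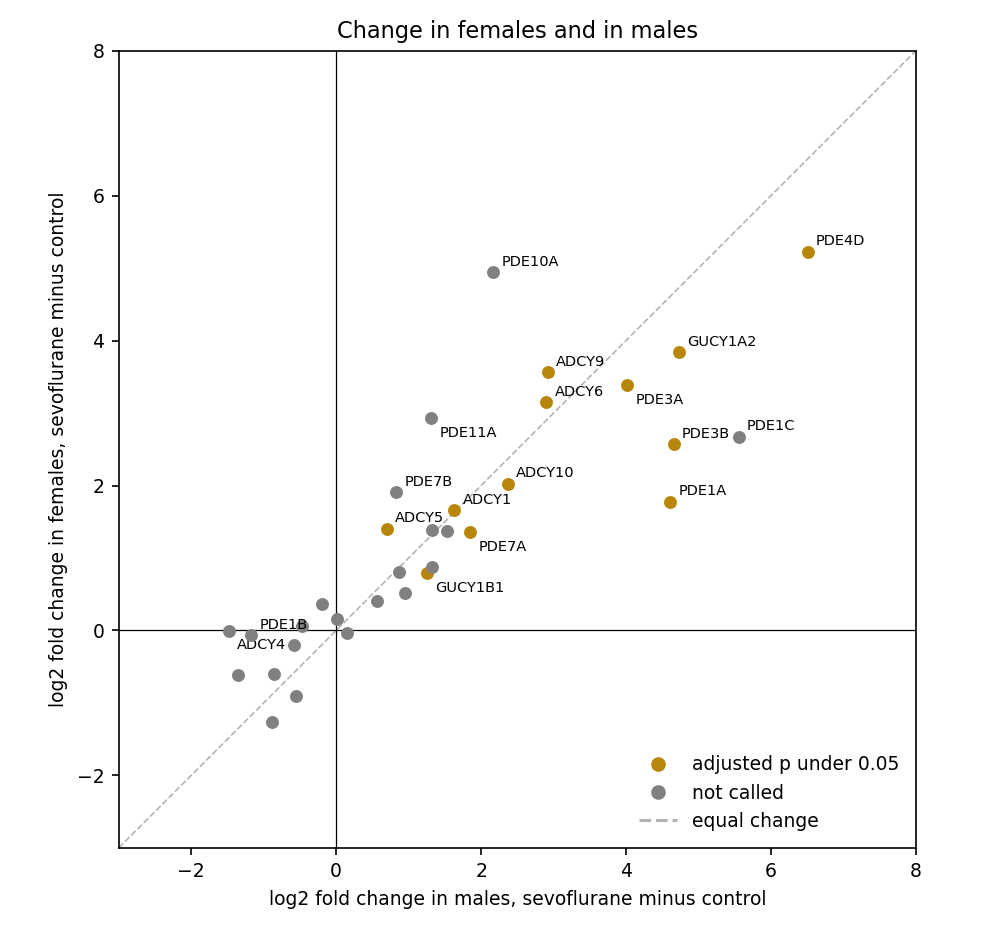
Log2 fold change of sevoflurane over control in males (x axis) and in females (y axis) for the 33 genes, with 1 library per point and group. Of the points, 23 lie right of and above 0, and 7 left of and below it. PDE1C, PDE1A and PDE3B lie well below the dashed line of equal change, and PDE10A well above it.

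Across both conditions, 2 of the 33 genes were called between males and females in a model with condition and sex, where 1.84% of all tested genes were called. GUCY1A1 was higher in males by 2.55 ± 0.30 (edgeR adjusted p = 0.00019). Males were above females in both the sevoflurane pair (377 against 61.1 CPM) and the control pair (131 against 23.5 CPM). ADCY2 was lower in males, at −1.18 ± 0.29 (edgeR adjusted p = 0.0475), with 72.3 against 161 CPM in the sevoflurane pair and 39.5 against 91.7 CPM in the control pair. At an unadjusted p under 0.05, 8 members differed, where 10.9% of all tested genes did. With 1 animal per sex and condition, sex and the individual animal cannot be told apart, and 1 residual degree of freedom was left.

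The wider pathway was followed in 7 lists with 60 tested genes, of which 21 rose and 8 fell, or 26 and 3 when libraries were divided by their totals. Over all tested genes 21.3% were called higher and 19.4% lower, or 25.3% and 14.7% on that scaling, and the counts of each list below stand against these shares. The median log2 fold change of the 60 genes was 0.65, against 1.16 for the cyclases and phosphodiesterases and 0.0040 for all tested genes. GNAS, NOS3, PRKACA, AKAP8L and RAPGEF3, named below as having fallen, were negative but not called with library totals (edgeR adjusted p = 0.0660 to 0.122). Among 7 heterotrimeric G proteins 1 rose and 2 fell. GNAL, the stimulatory alpha subunit of olfactory and striatal neurons, rose to 62.6 ± 22.2 CPM in sevoflurane, against 2.68 ± 0.739 in controls (4.55 ± 0.44, edgeR adjusted p = 0.00187). GNAS, the general stimulatory subunit, fell to 1274 ± 25.5 CPM in sevoflurane, against 2284 ± 168 in controls (−0.84 ± 0.27), a call lost when any 1 library was left out. GNAI2, an inhibitory subunit, fell by 1.25 ± 0.25. Of 5 nitric oxide synthases and natriuretic peptide receptors, 1 rose and 1 fell. NOS1, the neuronal synthase, had a log2 fold change of 4.03 ± 0.72, and 3.39 without the sevoflurane male, where its call was lost, and 4.86 without the control male. NOS3, the endothelial synthase, fell by 1.71 ± 0.55, a call lost without the control female or either sevoflurane library. The endothelial markers summed to 123 and 118 CPM in the sevoflurane female and male, against 160 and 207 CPM in the control female and male. Among them CLDN5 was called lower, and FLT1 and CDH5 higher.

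Downstream, 2 of 9 protein kinase A subunits and inhibitors rose and 2 fell. The regulatory subunits PRKAR2B (4.29 ± 0.41) and PRKAR2A (2.63 ± 0.44) rose. The regulatory subunit PRKAR1B fell to 354 ± 22.9 CPM in sevoflurane, against 1122 ± 10.2 in controls (−1.66 ± 0.26, edgeR adjusted p = 0.00481). The catalytic subunit PRKACA fell by 0.85 ± 0.24, a call lost when any 1 library was left out. Of 13 A-kinase anchoring proteins, which tether the kinase together with cyclases and phosphodiesterases, 7 rose and 1 fell, with a median of 2.03. AKAP11 rose to 278 ± 52.7 CPM in sevoflurane, against 2.38 ± 0.975 in controls (6.84 ± 0.43, edgeR adjusted p = 0.00141). AKAP5, an anchor of the postsynaptic density, rose by 5.99 ± 0.51. AKAP8L, of the nucleus, fell by 1.22 ± 0.35, a call lost without either male library.

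Of 12 other effectors, 5 rose and 1 fell. The exchange factors for Rap activated by cyclic AMP differed in sign: RAPGEF4 rose by 1.95 ± 0.28, and RAPGEF3 fell by 1.07 ± 0.30, a call lost without the sevoflurane male or either control. In the CREB family 3 of 8 rose and 0 fell. The coactivators CREBBP (2.94 ± 0.47) and EP300 (1.40 ± 0.27) were among them, with CREBBP at 2.25 without the sevoflurane female and the call of EP300 lost without the control male. Of 6 exporters and other regulators, 2 rose and 1 fell. ABCC4, which exports cyclic nucleotides, rose by 4.23 ± 0.75. That value was 3.61 when the control male was left out, and the ratio of reads was 46.9 (12.8 to 389) when the control female was. PPP1R1B, the DARPP-32 phosphatase inhibitor of striatal-type neurons, was at 82.5 and 115 CPM in the sevoflurane female and male, against 196 and 1336 CPM in the control female and male. Its fall of 2.95 ± 0.83 was −1.01 and not called without the control male, −3.73 without the control female, and not called without either sevoflurane library.

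**Figure D5:**
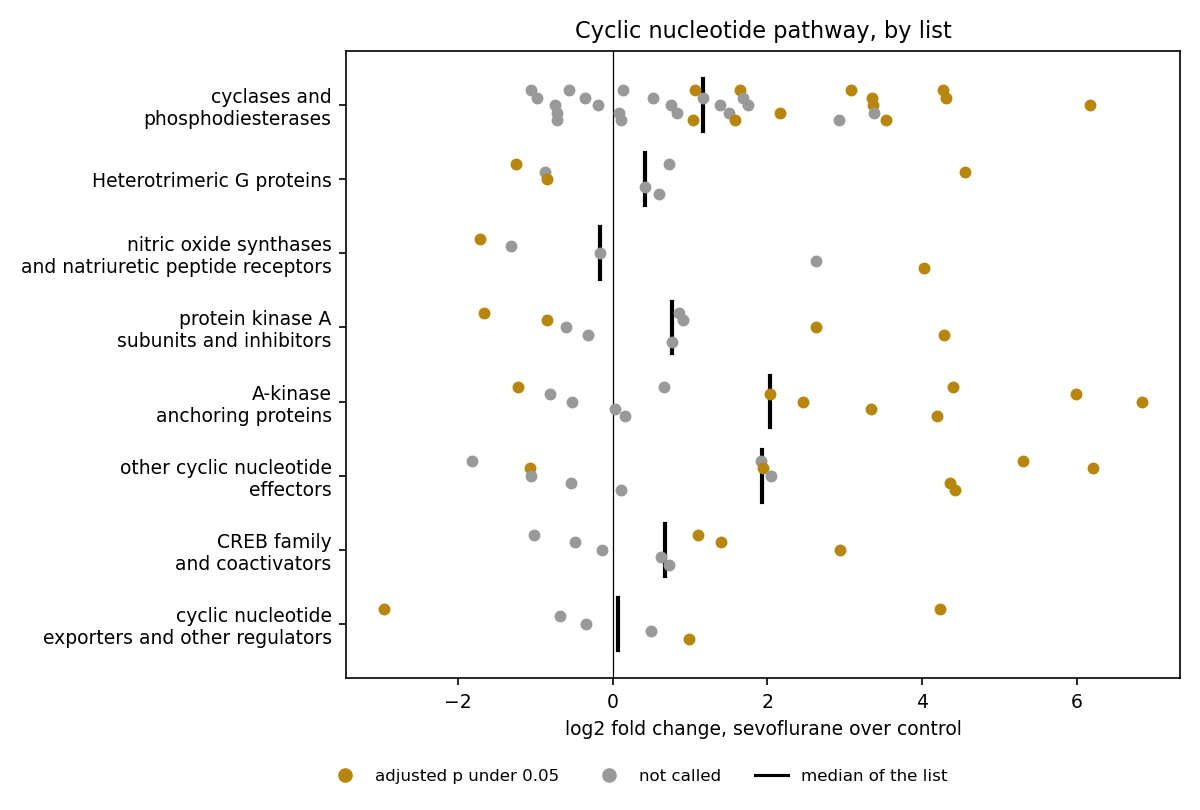
Log2 fold change of sevoflurane over control (x axis) for the 33 cyclases and phosphodiesterases and for 7 lists of other cyclic nucleotide pathway genes (y axis), coloured by whether edgeR's adjusted p was under 0.05, with a black bar at each median. Genes on both sides of 0 passed the test in 6 of the 7 lists, while the called cyclases and phosphodiesterases all lie above 0.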

How the data were processed

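The deposited file holds raw read counts per Ensembl macaque gene, with 1 column per library. Per the submitters' processing notes, the authors aligned reads with HISAT2. Those sources name no version, counting program, strand setting, genome build or annotation, so no positions, lengths or sequences are given. Reads shared by overlapping or near-identical genes may therefore be misplaced. Symbols came from a table that named 24173 of the IDs.

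Genes were filtered with edgeR 4.0.16 (filterByExpr, minimum count 10), scaled by TMM and tested with its quasi-likelihood F-test in R 4.3.3, on condition alone (residual degrees of freedom 2). P-values were adjusted by Benjamini-Hochberg over all tested genes. Standard errors came from the F statistic. All 33 members passed the filter, which a gene read in 1 group alone can pass. PDE3A and PDE4D reached 10 reads in the sevoflurane libraries only, so they are members through the group where they are high. Log2 fold changes within a sex use log2 CPM with a prior count of 2. The fit was also run on simulated counts without sex or cell type differences, so that run does not show how it performs on these libraries.

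Each group is 1 female and 1 male library, so p-values rest on the spread between these 2, sex included. The test also draws on the spread of all other tested genes to estimate that of each gene. All members are named. Pathway genes named are the called ones with the 2 smallest adjusted p in each list and direction, except that some are not reported here. Of 70 listed pathway symbols 67 had an ID. Members and lists were chosen with earlier results of these data known. Alternatives were RLE scaling, library totals, no filter, DESeq2 1.42.0, sex as a term, and leaving out each library. With 1 library left out, its condition's remaining library is assumed to vary like the others, with 1 residual degree of freedom.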

Additional observations from a re-analysis of the deposited data

Results flagged for a closer look

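For 3 genes, none of them called between conditions, the female and the male pair changed in opposite directions, and this difference was not tested because each pair has 1 library per condition. ADCY3 had a log2 fold change of 0.06 in females and −0.47 in males, a difference of 0.53. ADCY7 had 0.37 in females and −0.19 in males, a difference of 0.56. PDE6A, with 5 to 16 reads per library, had −0.03 in females and 0.15 in males, a difference of −0.18.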

How the results depend on the processing

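The 12 genes called higher were called in all 5 fits that used every library, and 6 of them also in all 4 fits that left one out. The count called higher was 12 with RLE scaling, 14 with library totals and 15 with DESeq2. It was 19 without a filter and 21 with sex as a second term. In the same order, 21.5%, 25.3%, 23.3%, 17.3% and 25.9% of all genes tested in each fit were called higher. The count called lower in these 5 fits was 0, except for 1 with DESeq2 and 1 with sex as a second term. The shares of all genes called lower were 19.3%, 14.7%, 22.2%, 16.4% and 24.9%. The members' median log2 fold change was 1.39 with library totals and ranged from 0.95 to 1.18 when 1 library was left out. Pathway genes called lower numbered 3 with library totals and 2 to 6 when 1 library was left out, against 8. All called genes numbered 3469 to 5800 when 1 library was left out, against 6278. ADCY3 turned to 0.049 with library totals. When 1 library was left out, ADCY3 ranged from −0.41 to 0.023, ADCY4 from −1.51 to 0.0024, ADCY7 from −0.15 to 0.35, GUCY1A1 from −0.33 to 3.20 and PDE6A from −0.99 to 1.07. The cause of these shifts was not tested. The labels carry no replicate numbers, and the fit with sex as a second term is the blocked fit that 1 female and 1 male per condition allow, with 1 residual degree of freedom. The block lost none of the 12 calls. Genes with under about 10 reads in the controls, such as PDE3A and PDE4D, have folds that depth does not fix well.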
